A study of Mus musculus with 4 samples.

Results

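Cd200 and the Cd200r receptor genes are 5 genes on mouse chromosome 16: Cd200, which encodes a membrane ligand, Cd200r1, which encodes its inhibitory receptor and is the target of the knockout, and the receptor paralogs Cd200r2, Cd200r3 and Cd200r4. They were chosen by gene symbol, and all 5 were found among the 18804 genes of the deposited table. Transcripts were measured by RNA-seq in ILC1s, tissue-resident innate lymphoid cells related to natural killer (NK) cells, from the livers of mice aged 5 to 8 weeks at homeostasis, with no agent given. There were 2 libraries labelled Cd200r knockout (replicates 1 and 2) and 2 labelled WT (replicates 1 and 3). The knockout label names no exon, promoter, Cre or founder strain, and nothing in the labels says whether a library came from 1 mouse or from a pool, so the spread between replicates may be partly technical.

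CD200 is a membrane glycoprotein of the immunoglobulin superfamily, carried by neurons, endothelium and some lymphocytes. Its receptor CD200R1 is found mainly on myeloid cells, mast cells and subsets of lymphocytes. The receptor has no classical inhibitory motif of the phosphatase-binding kind. Its cytoplasmic tail carries an Asn-Pro-X-Tyr motif that, once phosphorylated, binds the adaptor Dok2, which brings the Ras GTPase-activating protein RasGAP to the membrane and restrains Ras and ERK signalling. The mouse paralogs have a very short tail and a lysine in the membrane span, the feature by which activating receptors pair with the adaptor DAP12. Whether the paralogs bind CD200 has been debated.

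The receptor genes lie side by side on the plus strand of GRCm38 (mm10), in the order Cd200r1 (chr16:44765736-44794977), Cd200r4 (chr16:44811650-44839150), Cd200r2 (chr16:44867097-44915840) and Cd200r3 (chr16:44943596-45058365). The gaps between them are 16.7, 27.9 and 27.8 kb, and the 4 genes span 293 kb. Cd200 (chr16:45382111-45409060) lies on the minus strand 324 kb beyond Cd200r3. The coding sequences are alike, with 87.5% identical bases between Cd200r1 and Cd200r4, 86.2% between Cd200r1 and Cd200r2 and 91.3% between Cd200r2 and Cd200r4. Cd200r3 is the most distant, at 70.7% against Cd200r1. These sequences come from GENCODE release M21, and identity was counted over aligned bases without gaps.

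The 120 coding bases that differ least among Cd200r1, Cd200r2 and Cd200r4, compared without gaps, are shown first. They lie in exon 4 of Cd200r1 (chr16:44790020-44790139), exon 4 of Cd200r2 (chr16:44909521-44909640) and exon 5 of Cd200r4 (chr16:44833331-44833450). Capitals mark the 4 positions at which the bases are not the same in all 3 genes.
Cd200r1: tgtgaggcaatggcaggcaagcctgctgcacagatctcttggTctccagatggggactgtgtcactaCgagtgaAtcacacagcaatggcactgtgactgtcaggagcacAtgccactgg
Cd200r2: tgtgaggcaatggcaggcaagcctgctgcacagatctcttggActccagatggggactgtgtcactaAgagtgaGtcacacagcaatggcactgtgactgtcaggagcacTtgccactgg
Cd200r4: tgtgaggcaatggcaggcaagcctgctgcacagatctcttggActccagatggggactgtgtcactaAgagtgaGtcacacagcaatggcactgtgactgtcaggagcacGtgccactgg
In this stretch Cd200r1 differs from each of the others at 4 bases, and Cd200r2 and Cd200r4 differ from each other at 1. The longest run that Cd200r1 shares over whole transcripts, 88 bases with Cd200r4, does not lie within this stretch.

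The ends of the coding sequences show what separates the inhibitory receptor from its paralogs. The last 240 coding bases of Cd200r1 (exons 5 to 7) and the last 120 of Cd200r2 and Cd200r4 are given up to the stop codon. Capitals mark the Asn-Pro-X-Tyr codons in Cd200r1 and, in the paralogs, the lysine codon of a Leu-Tyr-Val-Lys run.
Cd200r1: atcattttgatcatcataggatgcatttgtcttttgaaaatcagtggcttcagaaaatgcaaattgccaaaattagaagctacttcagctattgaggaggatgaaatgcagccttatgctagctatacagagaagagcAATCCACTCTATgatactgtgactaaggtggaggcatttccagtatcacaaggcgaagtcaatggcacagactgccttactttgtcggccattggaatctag
Cd200r2: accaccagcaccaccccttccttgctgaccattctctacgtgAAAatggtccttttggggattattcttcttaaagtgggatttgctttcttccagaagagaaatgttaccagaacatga
Cd200r4: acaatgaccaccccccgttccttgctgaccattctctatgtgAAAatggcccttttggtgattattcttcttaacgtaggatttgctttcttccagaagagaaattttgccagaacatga
Cd200r1 has 326 codons and holds 1 Asn-Pro-X-Tyr motif, starting at codon 294, with 29 codons after it. Cd200r2 (249 codons), Cd200r4 (270 codons) and Cd200r3 (296 codons) hold none. Each of these 3 paralogs has 1 Leu-Tyr-Val-Lys run, followed by 24 codons in Cd200r2 and Cd200r4, and Cd200r1 has none.

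The sources used here give no read length, so shared sequence was counted for several lengths. Of all stretches of 50 bases in the Cd200r1 transcript, 2.17% occur exactly in a transcript of another gene, against 4.35% for Cd200r2 and 5.78% for Cd200r4. At 75 bases the shares are 0.77%, 2.15% and 2.9%. At 100 bases no stretch of Cd200r1 is shared and 0.666% of Cd200r2 and 0.648% of Cd200r4 are, and at 150 bases none of the 3 has any. The longest run of identical bases is 88 between Cd200r1 and Cd200r4, 47 between Cd200r1 and Cd200r2 and 110 between Cd200r2 and Cd200r4. Cd200r3 and Cd200 share none of these lengths with another gene. A pseudogene inside Cd200r2, Gm17928, holds some of the shared 50-base stretches. How reads that map to several places were counted is not stated.

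**Figure D1:**
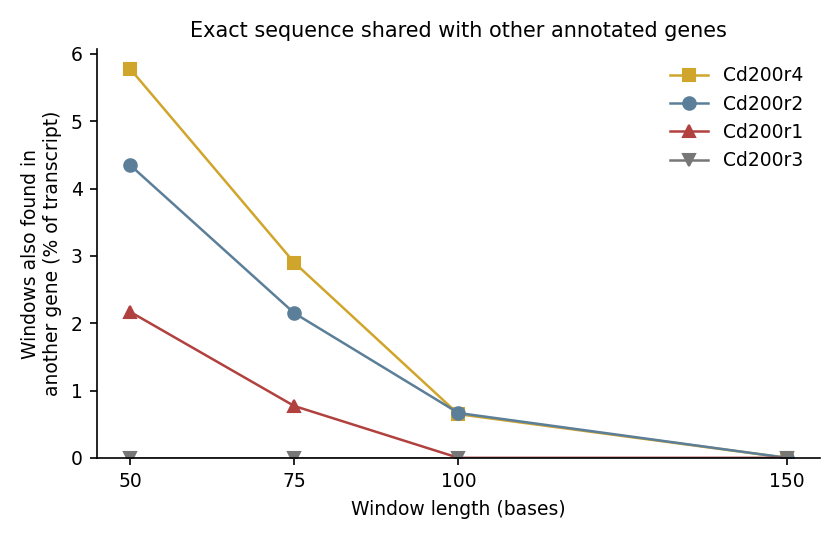
Share of all stretches of a transcript (vertical axis, %) that occur exactly in a transcript of another annotated gene, by stretch length in bases (horizontal axis), for the 4 receptor genes. The share falls from 2.17% to 0% for Cd200r1 between 50 and 100 bases.

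Values are FPKM as deposited by the authors, that is, fragments scaled by the length of the gene and the total of the library. Group differences were tested with limma on log2(FPKM + 1) over the 9476 genes whose mean reached 1 FPKM, with Benjamini-Hochberg adjustment and a threshold of 0.05. Depth inferred from single-exon genes was 38975510 to 41137968 reads a library. The ILC1 markers were present in all 4 libraries: 10 of 10 were tested, led by Ncr1, Cxcr6 and Klrb1c, and none passed the test. Of the 9476 genes, 316 (3.33%) passed, 227 higher (2.4%) and 89 lower (0.939%) in knockout. Markers of other cells moved between the groups as well. Conventional NK markers rose for 8 of 9 tested (summed level 257 to 503 FPKM in knockout and 85.4 to 88.7 in WT), macrophage markers for 7 of 11 (644 to 962 and 228 to 247), and erythroid markers fell for 6 of 6 (12438 to 13974 and 24615 to 26701). No marker of these 3 lists was at 0 in all libraries, but Mertk, a macrophage marker, was listed at 0 in both WT libraries and Timd4, a Kupffer cell marker, in WT replicate 1. In bulk libraries, fewer cells of a type and less RNA per cell cannot be told apart.

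Cd200r1, the targeted gene, was lower in knockout but still among the more abundant transcripts. It measured 111 and 104 FPKM in knockout replicates 1 and 2, and 162 and 173 FPKM in WT replicates 1 and 3. The knockout values lay below both WT values, a separation in this direction that 21.7% of tested genes show, and were close to each other. The fall was 1.56-fold by group means (107 ± 4.95 against 167 ± 8.34, SD, n = 2 each), with a log2 fold change of −0.64 (SE 0.092, 95% confidence interval −0.84 to −0.43, limma adjusted p = 0.00451). A call in this direction was made for 0.939% of all genes tested, and 1.78% had a log2 fold change at or below that of Cd200r1. By mean level Cd200r1 ranked 448 of 18804 genes in WT and 798 in knockout.

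These values stand for about 12032 and 12782 reads in WT and 8616 and 7752 in knockout, if the transcript of 1892 bases is taken as the gene's length. That transcript has 7 exons. The last exon holds 779 bases (41.2%), most of it untranslated, and exons 3 and 4, which encode most of the extracellular part, hold 315 (16.6%) and 252 (13.3%). Which exons the allele lacks is not stated, and 1 value per gene adds up reads from all exons, so it cannot show which part of the transcript was reduced and checks the knockout label only by direction. Macrophages also transcribe Cd200r1, and in the same libraries 7 of 11 tested macrophage markers were higher in knockout. Most of their summed level was Lyz2 (527 and 771 FPKM in knockout, 213 and 193 in WT). Clec4f, Vsig4, Cd14 and Cd5l did not pass. Marco, below the filter, was lower in knockout (0.328 and 0.158 against 0.554 and 0.36 FPKM). The part of macrophages in the Cd200r1 value was not tested. When libraries were rescaled without haemoglobin and mitochondrial genes, the log2 fold change of Cd200r1 was −0.66. With no filter on low values and without limma's mean-variance trend, the same difference did not pass (adjusted p = 0.302 and 0.108).

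Cd200r2, which encodes a DAP12-type paralog, was the most abundant of the 5 genes in every library. It measured 328 and 290.5 FPKM in knockout replicates 1 and 2 and 276 and 308 FPKM in WT replicates 1 and 3. The groups overlapped, with the highest and the second lowest value both in knockout. The log2 fold change was 0.084 (SE 0.095), with a 95% confidence interval from −0.13 to 0.29, and did not pass (limma adjusted p = 0.742). Its sign turned without knockout replicate 1 (−0.0042) and with quantile normalization (−0.002). Its replicates differed from each other by 0.18 (knockout) and 0.16 (WT) on the log2 scale, where the median gene of like level differed by 0.091 and 0.077.

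Cd200r4, the paralog next to Cd200r1 and the one most like it in sequence, hardly varied. It measured 78.9 and 74.9 FPKM in knockout and 75.6 and 76.7 FPKM in WT. The WT values lay between the knockout values. The log2 fold change was 0.013 (SE 0.097, 95% confidence interval −0.2 to 0.23, limma adjusted p = 0.966). A fall of the size measured for Cd200r1 lies outside the intervals of both paralogs. The sign of the Cd200r4 value turned under 3 of the alternatives, between −0.04 and −0.013.

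Cd200r3, a paralog known from basophils and mast cells, was near the lower end of detection. It measured 1.03 and 0.931 FPKM in knockout and 0.876 and 0.847 FPKM in WT, or 33.0 to 42.4 reads per kilobase. The knockout values lay above the WT values, a separation that 46.0% of tested genes show in either direction. Its mean of 0.921 FPKM was below the filter. With the filter at 0.5 FPKM the log2 fold change was 0.089 (95% confidence interval −0.38 to 0.55, limma adjusted p = 0.893). Of 10 basophil and mast cell markers, 5 were in the table and 1 of these, Kit, reached a mean of 1 FPKM. Their summed level was 4.42 to 5.04 FPKM in knockout and 1.94 to 2.15 in WT. Kit was the largest part of it in every library (3.1 and 2.46 FPKM in knockout, 1.31 and 0.644 in WT). The part of these cells in the Cd200r3 values was not tested. Fcer1a, the defining Fc receptor subunit of these cells, was listed at 0 in both knockout libraries and WT replicate 1. It was 0.0249 FPKM in WT replicate 3. Mcpt8, a basophil protease, was 0.92 and 0.869 FPKM in knockout and 0.492 and 0.61 in WT, and Hdc 0.734 and 0.87 against 0.23 and 0.281. Cpa3 overlapped between the groups (0.279 and 0.222 FPKM in knockout, 0.12 and 0.381 in WT).

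Cd200, the ligand gene, was scarcely detected, and its values did not follow genotype. It measured 0.0819 and 1.47 FPKM in knockout replicates 1 and 2, 0.407 FPKM in WT replicate 1, and was listed at 0 in WT replicate 3. For a transcript of 2347 bases these are about 8, 137, 38 and 0 reads. The lowest and highest values above 0 were both in knockout. Its mean of 0.49 FPKM was below the filter. With no filter, limma gave a log2 fold change of 0.46 (95% confidence interval −0.87 to 1.79, adjusted p = 0.748), and with 1 library left out the difference was −0.13 (without knockout replicate 2), 0.22 (WT replicate 3), 0.71 (WT replicate 1) or 1.06 (knockout replicate 1). Cd200l1, a Cd200-like gene beside Cd200 that was added after its values were seen, was at most 0.0365 FPKM.

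**Figure D2:**
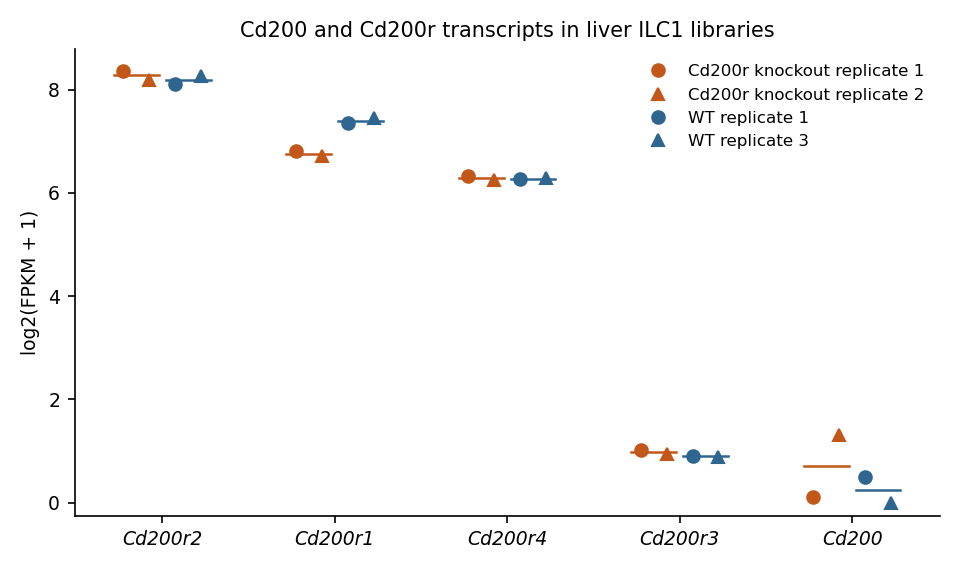
Level of each gene as log2(FPKM + 1) (vertical axis) in each library, with knockout in orange and WT in blue, symbols for the 2 replicates of each group, and short lines for group means. Only Cd200r1 shows both knockout values below both WT values, while Cd200r3 and Cd200 lie near 0.

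The order of the levels was Cd200r2, Cd200r1, Cd200r4, Cd200r3 and Cd200 in all libraries except knockout replicate 2, where Cd200 (1.47 FPKM) was above Cd200r3 (0.931 FPKM). The lowest value of each of the first 3 genes exceeded the highest value of the next in this order. Ranges overlapped for Cd200r3 and Cd200. Set against its neighbours within each library, which is free of scaling between libraries, Cd200r1 was 0.337 and 0.357 of Cd200r2 in knockout and 0.586 and 0.563 in WT. Against Cd200r4 the ratios were 1.4 and 1.39 in knockout and 2.14 and 2.26 in WT. The groups did not overlap in either ratio, as they did not in the levels of 46.0% of tested genes, counting either direction. Both ratios contain the Cd200r1 value, so they restate its fall and are not separate results. The ratio of Cd200r2 to Cd200r4 was 4.16 and 3.88 in knockout and 3.64 and 4.01 in WT, and overlapped.

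Together the 3 expressed receptor genes summed to 518 and 469 FPKM in knockout and 513 and 558 in WT. Cd200r1 made up 21.4% and 22.1% of that sum in knockout and 31.5% and 31.1% in WT. The share of Cd200r2 was 63.4% and 61.9% in knockout against 53.7% and 55.2% in WT. Transcripts of the paralogs that lack the Asn-Pro-X-Tyr codons were thus the larger part in every library. With 2 libraries a group the smallest p of an exact two-sided permutation test is 0.333, so none is given for these shares.

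**Figure D3:**
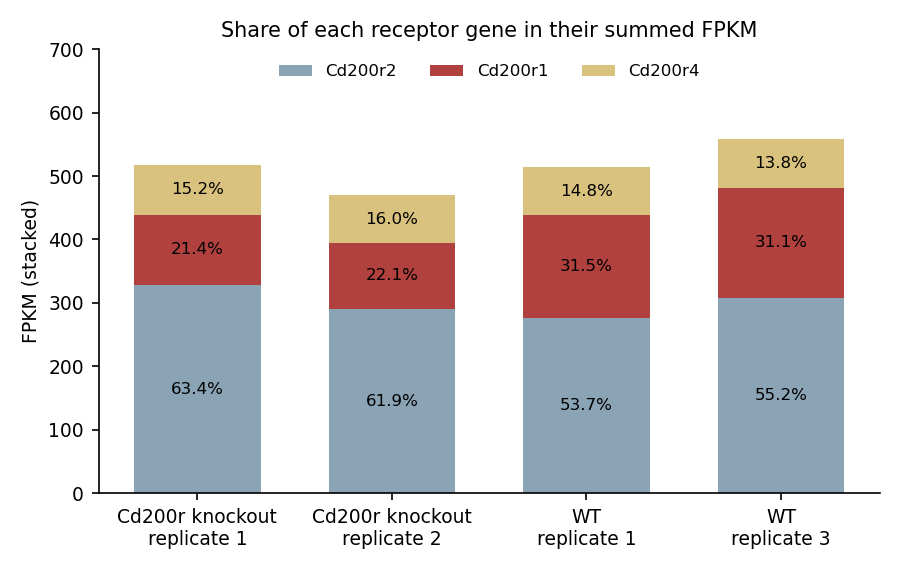
FPKM of Cd200r2, Cd200r1 and Cd200r4 stacked for each library (vertical axis), with each gene's share of the stack in %. The Cd200r1 share is 21.4% and 22.1% in knockout and 31.5% and 31.1% in WT.

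Genes of the receptor's pathway, and of inhibitory signalling more widely, were then described from lists chosen with earlier results of these data known. No member of the inhibitory signalling list (8 of 8 tested) passed, where 3.33% of all genes did. Its median log2 fold change was −0.13, against 0.0033 over all genes. Of its 8 values 7 were negative, as were 4692 of 9476 over all genes tested. Dok2, the adaptor that binds the phosphorylated receptor, was abundant, at 198 and 212 FPKM in knockout and 214 and 235 in WT (−0.13, 95% confidence interval −0.33 to 0.069). The knockout values lay just below the WT values, a separation in this direction that 21.7% of tested genes show. Dok1, a related adaptor, measured 37.1 and 30.6 FPKM in knockout and 30.2 and 30.6 in WT (0.15, −0.14 to 0.43). Rasa1, which encodes RasGAP, measured 13.5 and 16.1 against 16.2 and 15.2 FPKM (−0.08, −0.42 to 0.26), and the groups overlapped. Inpp5d, which encodes the lipid phosphatase SHIP-1, had a log2 fold change of −0.21 with knockout replicate 1 (42.4 FPKM) inside the WT range and replicate 2 (30.8 FPKM) below it. The signs of Rasa1 and Inpp5d turned without knockout replicate 1 (0.035) and knockout replicate 2 (0.013). The smallest p-values of the list were those of Nck1, an adaptor of the actin cytoskeleton (−0.32, limma adjusted p = 0.288), and Ptpn6 (−0.19, adjusted p = 0.316). Ptpn6 encodes the phosphatase SHP-1. Ptpn6 and Ptpn11, also on this list, encode phosphatases that bind the classical inhibitory motif, which the receptor lacks. Both count in the median and the signs of the list.

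A list for the Ras to ERK arm downstream was measured next. It also holds Mapk8, Mapk9 and Mapk14, which encode kinases of cascades parallel to ERK. Of 15 tested genes of that list (18 listed), Mapk9 and Mapk14 among them, none passed, where 3.33% of all genes did. The median log2 fold change of the list was 0.013, which is the value of Mapk9, with a range from −0.2 to 0.3. Rasgrp2, a Ras-family activator (0.3, SE 0.19, limma adjusted p = 0.492), and Map2k1, which encodes MEK1 (−0.13, SE 0.1, adjusted p = 0.626), were among those with the smallest p-values. Of 7 tested Src-family kinases and regulators (10 listed), 1 passed, beside the same 3.33% of all genes. The median log2 fold change over that list was 0.052.

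The adaptors used by activating receptors of the paralog type were abundant. Tyrobp, which encodes DAP12, measured 3983 and 4473 FPKM in knockout and 5167 and 4998 in WT. Both knockout values lay below the WT values, as they did for 21.7% of tested genes. The log2 fold change of −0.27 (SE 0.083) did not pass (limma adjusted p = 0.132), and its size varied with the processing. It was −0.057 with quantile normalization (limma adjusted p = 0.777) and −0.18 without knockout replicate 1 (0.188), and it passed without knockout replicate 2 (−0.35, 0.0205). Fcer1g, which encodes the Fc receptor gamma chain, had −0.11. Syk, a kinase recruited by both adaptors, had −0.52 at a low level (1.23 and 1.64 FPKM in knockout, 2.68 and 2.31 in WT). Zap70, the other kinase of this list, had −0.05 at a high level (212 and 193 FPKM in knockout, 209 and 209.5 in WT). None of the 6 tested adaptors and kinases passed, where 3.33% of all genes did, and their median was −0.095.

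**Figure D4:**
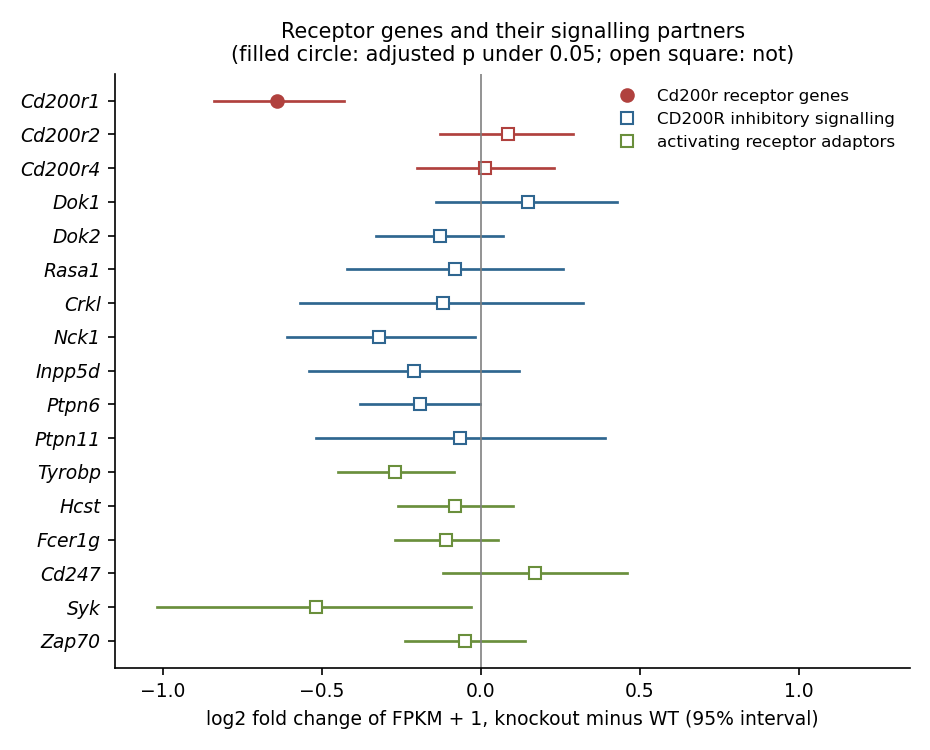
Log2 fold change of FPKM + 1, knockout minus WT (horizontal axis), with 95% confidence intervals from limma, for the 3 expressed receptor genes (red), the inhibitory signalling list (blue) and the activating receptor adaptors (green). Cd200r1 is the single filled point, at −0.64, and the other 16 did not pass.

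Among 23 inhibitory receptor genes including it, Cd200r1 was the sixth most abundant in WT and the eighth in knockout. In WT it stood between Cd96 (227 to 249.8 FPKM) and Cd72 (109 to 118 FPKM), and neither range touched its own of 162 to 173. In knockout its range of 104 to 111 FPKM was below that of Cd72 (133 to 137) and above that of Lag3 (47.1 to 68.8). The highest was Klrc1, which encodes NKG2A, at 866 to 904 FPKM in WT. Of the 22 others, 18 were tested, and 6 rose and none fell, where 2.4% of all genes tested rose and 0.939% fell. Of the 18, 5 had a WT mean under 1 FPKM and entered the test only through their knockout values, among them Fcgr2b, Lair1 and Cd300a, so these 3 of the 6 could be counted only as rises. The 4 with the smallest p were Fcgr2b, the inhibitory Fc receptor (2.09, SE 0.27), Lair1, a collagen receptor (1.32, SE 0.24), Klra1, a Ly49 receptor (1.38, SE 0.26), and Cd300a, a lipid-binding receptor (1.26, SE 0.25). Fcgr2b, Lair1 and Cd300a were at most 0.684 FPKM in WT and at most 7.15 FPKM in knockout. Lair1 lost its call when knockout replicate 2 was left out (1.18, limma adjusted p = 0.0749), nor Cd300a without knockout replicate 1 (1.04, 0.0753) or WT replicate 1 (1.09, 0.0733), and Klra1 fell to 0.85 without knockout replicate 2. Klra genes are alike in sequence and may share reads. Most tested macrophage markers (7 of 11) and conventional NK markers (8 of 9) rose in the same libraries, and their part in these values was not tested.

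**Figure D5:**
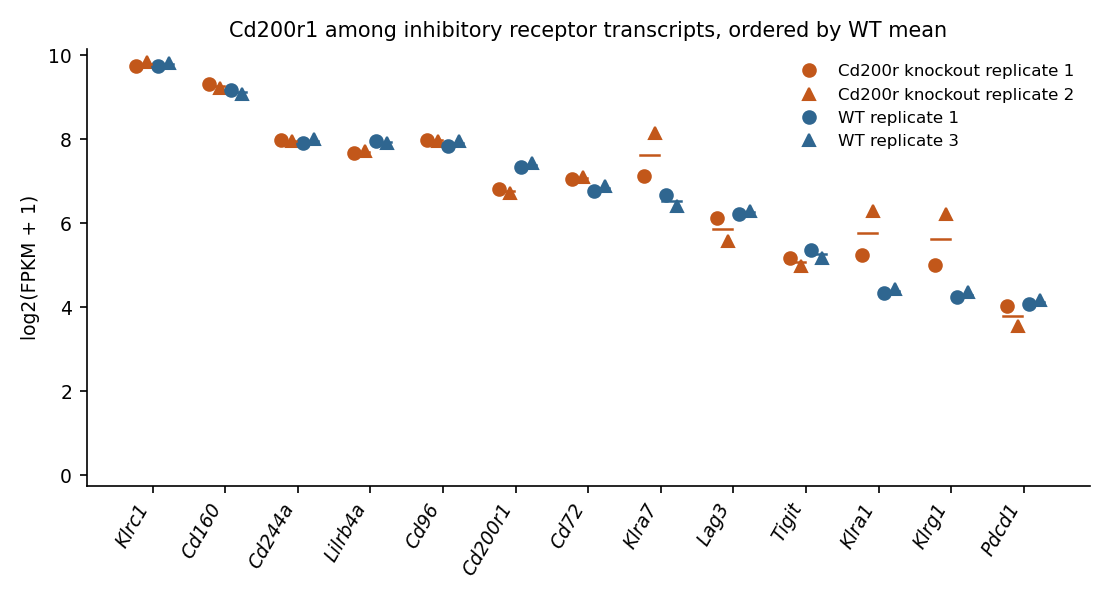
Level as log2(FPKM + 1) (vertical axis) of the 13 most abundant inhibitory receptor genes in WT order, by library, with knockout in orange, WT in blue and lines for group means. Cd200r1 stands sixth, and its knockout values lie below its WT values and below those of Cd72.

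The genes whose values moved most like those of Cd200r1 over the 4 libraries were found by the distance between log2(FPKM + 1) values centred on each gene, among 6090 genes whose mean reached 5 FPKM. They were Gcnt2, a glycosyltransferase (distance 0.061), Cnst, which encodes consortin (0.068), Myo6, an unconventional myosin (0.075), Sytl2, a granule tethering protein (0.076), and Jun, an AP-1 subunit (0.078). Of these, Jun passed the test (220.2 and 210.5 FPKM in knockout, 344 and 346 in WT, −0.68 in log2, limma adjusted p = 0.00172), and the others had −0.59 to −0.57 and did not pass. In all, 41 genes lay within 0.2 of Cd200r1, against 1155 of Cd200r2 and 2035 of Cd200r4, whose values hardly moved. The nearest to Cd200r2 were Lancl1, Ddost and Fubp1, and those to Cd200r4 were Ddx18, Rac2 and Clp1. With 4 libraries such likeness is a description only.

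Of the other genes at the locus, none of the 5 tested passed, where 3.33% of all genes did. Gtpbp8, the nearest gene upstream of Cd200r1, measured 2.65 and 4.14 FPKM in knockout and 2.38 and 3.72 in WT, and Slc35a5, between Cd200r3 and Cd200, 12.9 and 14.6 against 16.5 and 16.6.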

How the data were processed

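The 4 libraries were liver ILC1s, 2 per genotype. Per the labels' protocols, RNA was extracted with TRIzol, amplified as full-length cDNA with a kit for single cells and built into libraries with a transposase-based kit, which does not mark strand. Overlapping genes on opposite strands can therefore share reads. Per the submitters' processing notes, fastp, HISAT2, HTSeq, DESeq2, R 3.2.0 and build mm10 were used, with no role or order given. The authors deposited FPKM per gene and no counts, with no stated scaling between libraries.

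Symbols were used as deposited, and all 5 matched the RefSeq table of GRCm38.p6. Depth was inferred from the step between low FPKM values of 137 to 166 single-exon genes per library, of which 68.9% to 72.3% then lay within 0.05 of a whole read. Limma 3.58.1 (R 4.3.3) was fitted with a mean-variance trend and no covariate, two-sided. On 10 simulated sets of 9476 genes it recovered 71.4% of 2-fold and 99.9% of 4-fold changes, and 5.72% of its calls were false. These sets were drawn from limma's own fitted means and variances, with independent normal noise and 200 genes changed in each. They share the assumptions of the test, so the 5.72% does not measure the error among calls on the real libraries. The members and lists were chosen with earlier results of these data known.

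Named genes are the 5 members, in each list the members past the test (at most 4 by smallest p) or else the 3 with the smallest p, Dok1, Dok2, Rasa1, Inpp5d and Tyrobp, the nearest genes by pattern (5 for Cd200r1, 3 for each other expressed receptor), and the most abundant markers. Some genes that this rule names are not reported here. Others were named after their values were seen: Cd96, Cd72, Lag3, Klrc1, Mertk, Timd4, Clec4f, Vsig4, Cd14, Cd5l, Marco, Fcer1a, Cpa3, Mapk8, Mapk9, Mapk14, Ptpn11, Zap70 and the genes at the locus. A listed gene below 1 FPKM in WT could enter the test only through higher knockout values, as did 2 conventional NK, 1 macrophage and 2 neutrophil markers counted as rises. Coding sequences were taken from GENCODE M21, aligned with Biopython 1.88. A total of 14 alternatives covered the pseudocount, filter, scaling, variance model and each library left out.

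The marker lists for neutrophils (2 of 4 tested higher), T cells (1 of 8 higher), B cells (0 of 5), dendritic cells (1 of 2 lower), endothelium (0 of 1), hepatocytes (1 of 5 higher) and ILC2s (0 of 1) were also measured. Over all genes tested, 2.4% were called higher and 0.939% lower.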

Additional observations from a re-analysis of the deposited data

How the results depend on the processing

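The log2 fold change of Cd200r1 kept its direction in all 14 alternatives, from −0.7 to −0.59, and passed in 12. It was −0.64 but did not pass with no filter (adjusted p = 0.302) or without the trend (0.108). Over the libraries left out it ranged from −0.69 to −0.59. With no filter limma called 0 of 18155 genes, although 1898 had an unadjusted p under 0.05.

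Values near 0 changed sign. Cd200r2 was −0.002 with quantile normalization and ranged from −0.0042 to 0.17 over the libraries left out. Cd200r4 was −0.04 with quantile normalization and −0.013 after rescaling that left haemoglobin and mitochondrial genes out, and ranged from −0.025 to 0.05. With a pseudocount of 0.1 Cd200 was 1.25 and Cd200r3 0.17, and with 5 Cd200r3 was 0.029.

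The count of calls over all genes was 316, against 70 without the trend, and ranged from 256 to 574 over the libraries left out. For lower calls it was 89, against 0 with no filter and 13 without the trend, and ranged from 56 to 223 over the libraries left out. The Src-family list had 0 calls with no filter, with a minimum of 5 FPKM and without the trend, and 0 to 1 over the libraries left out. The adaptor list had 0 to 1 over the libraries left out. The inhibitory receptor list had 0 with no filter, 3 with a minimum of 5 FPKM and 1 without the trend. Lair1, Klra1, Cd300a and Jun did not pass with no filter or without the trend, nor Fcgr2b with no filter, and Sytl2 passed with a minimum of 5 FPKM and without knockout replicate 1. With quantile normalization the sign turned for Fcer1g (0.059), Ddx18 (−0.021), Rac2 (−0.042) and Clp1 (−0.0072). It turned with the rescaling for Ddx18 (−0.015), Rac2 (−0.018) and Clp1 (−0.0066), and as TPM for Rac2 (−0.00014). Over the libraries left out, values that turned ranged from −0.2 to 0.035 for Rasa1, −0.44 to 0.013 for Inpp5d, −0.0043 to 0.17 for Ddost, −0.015 to 0.15 for Fubp1, −0.032 to 0.052 for Ddx18, −0.024 to 0.039 for Rac2 and −0.02 to 0.058 for Clp1. The cause of these changes was not tested.

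No paired analysis was possible because the groups share a single replicate number. Precision is limited by 2 libraries a group, and for Cd200 and Cd200r3 by few reads.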
